A study of Homo sapiens with 22 samples.

Results

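The genes described here encode 9 transcription factors of the skeleton: RUNX2, RUNX3, SOX9, SOX5, SOX6, SP7, DLX5, DLX6 and SHOX2. They were taken by name, as 9 of 19970 protein-coding genes on chromosomes 1 to 22 and X, and no measured value entered the choice. For each gene, the peaks of 18 deposited lists that lay over the gene or within 1 kb of it were collected in the Ewing sarcoma cell lines A673 and CHLA10. H3K27ac and HOXD13 peaks farther out, up to 100 kb from the gene, were collected as distal peaks.

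The series mapped the homeobox factor HOXD13 and 4 histone marks by automated CUT&RUN, in which an antibody directs a nuclease to chromatin and the released fragments are sequenced. H3K4me3, H3K27me3, H3K27ac and H3K4me1 each had 2 libraries of A673 cells labelled shNS and 2 libraries of CHLA10 cells labelled shNS. HOXD13 had 1 library per line, A673 and CHLA10, without the shNS label, so its peaks are set beside marks of differently labelled cells. The 4 IgG libraries are not used here. The labels do not say whether replicates were separate cultures. Comparing 2 libraries with 2 by exact permutation cannot give a p below 0.33, so no test between lines was run, and each count is set beside the share of all protein-coding genes that met the same rule. That share is also given for the 3351 genes of 100 kb or more where long genes are involved, since a long gene collects peaks by its size.

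RUNX2 is required for osteoblasts to form and acts upstream of SP7 (osterix), the zinc finger factor of maturing osteoblasts. SOX9 starts the cartilage program, and SOX5 and SOX6 work beside it in chondrocytes. DLX5 and DLX6 are neighbouring homeobox genes of limb, jaw and bone, SHOX2 patterns the proximal limb, and RUNX3 acts in chondrocyte maturation as well as in blood and neurons. H3K4me3 marks transcription starts that are active or poised, H3K27ac and H3K4me1 mark enhancers, and H3K27me3 is the mark of Polycomb repression. A start that carries H3K4me3 together with H3K27me3 is called bivalent.

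The lists differ in ways that bear on these genes. H3K4me1 peaks covered 74.5 and 51.6 Mb in the A673 libraries (replicates 1 and 2, in this order throughout) but 9.63 and 11.3 Mb in CHLA10. HOXD13 lists hold 7160 peaks in A673 and 2099 in CHLA10. Fold enrichment is the authors' own value for each peak, and the median H3K4me3 peak stood at 23.5 and 21.1 in A673 and at 13.6 and 12.7 in CHLA10. A fold is therefore read within its list, and since lists also differ in length, a rank places a peak in its own list only. The median H3K4me3 peak was also longer in A673, at 1940 and 1810 bp, than in CHLA10, at 1490 and 1540 bp. Among marker genes for cell identity, 10 of 10 Ewing sarcoma genes had H3K4me3 in all 4 libraries, against 0 of 4 for each of blood, epithelium, endothelium and muscle.

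H3K4me3 was present at every gene of the group. In all, 9 of 9 genes had an H3K4me3 peak in all 4 libraries, where 66.7% of protein-coding genes and 82.6% of genes of 100 kb or more did. No gene of the group had the mark in A673 only (1.68% of all genes) or in CHLA10 only (2.40%). The genes differed instead in how high and how broad that peak was within each list.

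**Figure D1:**
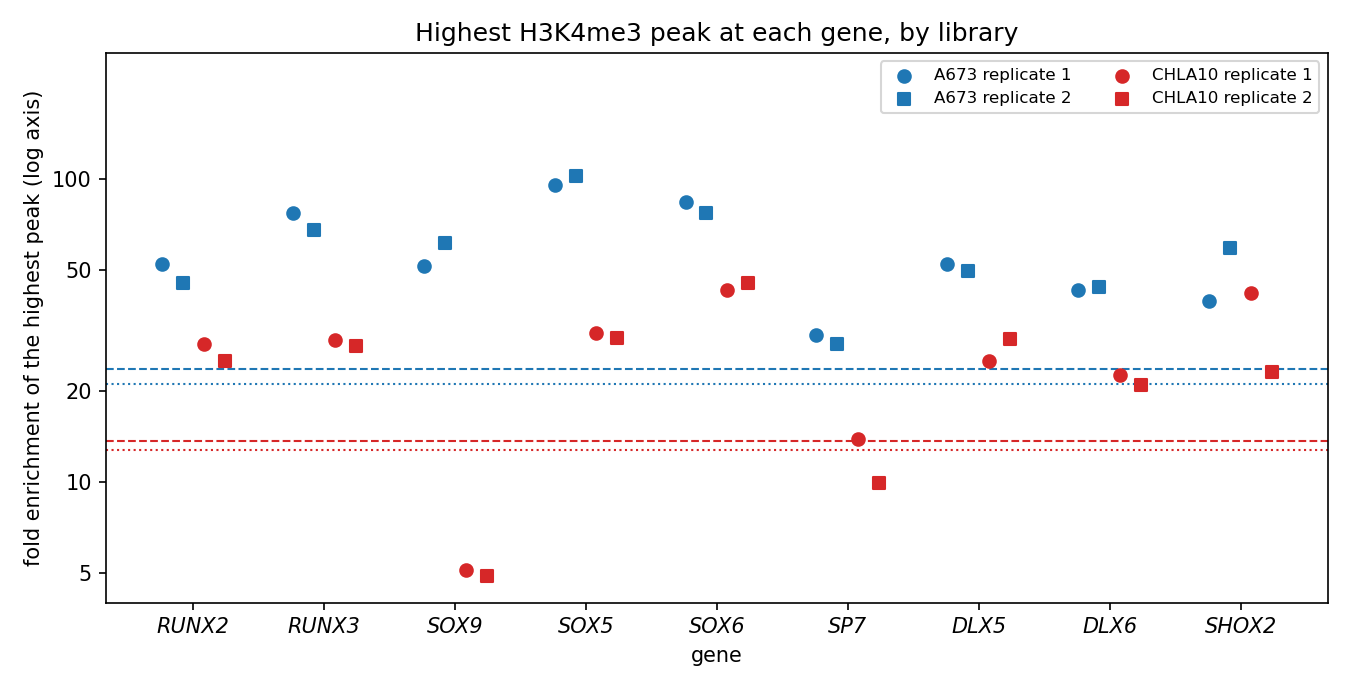
The fold enrichment of the highest H3K4me3 peak (log axis) is plotted for each gene and library, with circles for replicate 1, squares for replicate 2, and horizontal lines at each list's median (dashed for replicate 1, dotted for replicate 2). SOX9 in CHLA10, at 5.14 and 4.90, lies far under the medians of its own lists, while every A673 point lies above the medians of A673.

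RUNX2 (chr6:45328330-45551082) had its highest H3K4me3 folds at 52.5 and 45.2 in A673 and at 28.6 and 25.1 in CHLA10, above 79.7%, 76.6%, 79.4% and 77.8% of the peaks in the respective lists. The A673 maxima lay at a RUNX2 start, and the CHLA10 maxima at the start of SUPT3H, a gene that overlaps RUNX2. RUNX genes are transcribed from a distal and a proximal promoter, and RefSeq gives RUNX2 a start at each. All 4 libraries had an H3K4me3 peak at the second, proximal start, with folds of 52.5 and 45.2 in A673 and 24.3 and 20.5 in CHLA10. The window of 300 bases at the first, distal start had no H3K4me3 peak in any library. It did overlap H3K27ac in A673 replicate 1, with a fold of 8.46, and H3K4me1 in A673 replicate 2, but neither mark in CHLA10. With windows of 1 kb on each side of the gene boundaries, RUNX2 had both of these marks in A673 only. The nearest H3K4me3 peak was one of 218 bp with a fold of 4.35, 0.116 kb inside the gene, in A673 replicate 1. The place at the SUPT3H start, 47.9 kb into RUNX2, was also shared by all 4 libraries, with folds of 36.2 and 43.9 in A673 and 28.6 and 25.1 in CHLA10.

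RUNX3 (chr1:24899511-24965138) repeated this arrangement. Its highest folds were 76.9 and 67.8 in A673 and 29.3 and 28.1 in CHLA10, all at the second start, which RUNX3-AS1 shares. No library had an H3K4me3 peak over the window of its first start. A small place found in both CHLA10 libraries and neither A673 library, with folds of 3.82 and 4.47, ended 0.899 kb inside that boundary.

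The sequences of these 4 starts are shown because the starts with and without H3K4me3 differ in base composition. They are from RefSeq on GRCh38.p14, run from 250 bases before to 50 bases after each start, and are written 5′ to 3′ on the strand of the gene. The hexamer ACCACA, the core that RUNX proteins bind, was searched on both strands as ACCACA and TGTGGT, and matches are in capitals. RUNX2 lies on the plus strand, with windows at chr6:45328080-45328379 and chr6:45422025-45422324. RUNX3 lies on the minus strand, with windows at chr1:24964961-24965260 and chr1:24930227-24930526.
RUNX2 start 1: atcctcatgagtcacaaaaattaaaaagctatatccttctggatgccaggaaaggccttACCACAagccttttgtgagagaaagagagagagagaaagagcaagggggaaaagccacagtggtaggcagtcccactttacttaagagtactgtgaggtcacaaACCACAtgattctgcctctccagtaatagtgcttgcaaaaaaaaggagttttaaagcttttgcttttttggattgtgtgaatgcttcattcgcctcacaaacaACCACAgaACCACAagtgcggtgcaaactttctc
RUNX2 start 2: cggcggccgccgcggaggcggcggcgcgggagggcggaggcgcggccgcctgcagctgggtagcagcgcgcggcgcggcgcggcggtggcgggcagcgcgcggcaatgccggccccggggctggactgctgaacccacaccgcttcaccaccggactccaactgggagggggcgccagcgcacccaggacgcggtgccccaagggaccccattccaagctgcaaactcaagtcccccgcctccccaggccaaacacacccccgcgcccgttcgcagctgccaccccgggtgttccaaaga
RUNX3 start 1: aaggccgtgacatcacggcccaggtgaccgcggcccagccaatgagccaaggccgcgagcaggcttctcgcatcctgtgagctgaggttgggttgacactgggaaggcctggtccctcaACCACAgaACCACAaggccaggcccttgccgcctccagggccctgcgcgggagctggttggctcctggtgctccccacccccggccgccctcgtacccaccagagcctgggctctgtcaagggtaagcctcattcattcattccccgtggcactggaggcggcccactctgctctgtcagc
RUNX3 start 2: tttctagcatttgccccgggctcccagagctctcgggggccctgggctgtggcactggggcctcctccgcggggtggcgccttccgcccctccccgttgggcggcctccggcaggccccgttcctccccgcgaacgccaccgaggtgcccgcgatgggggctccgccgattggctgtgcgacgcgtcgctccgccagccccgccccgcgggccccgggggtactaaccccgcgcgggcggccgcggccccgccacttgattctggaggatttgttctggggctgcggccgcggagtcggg

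The window at the distal RUNX2 start holds 4 matches, 2 CpG dinucleotides and 42.7% G or C. Its proximal start holds 0 matches, 39 CpG and 76.0% G or C. In RUNX3, the distal start has 2 matches, 15 CpG and 66.3% G or C, and the proximal start 0 matches, 38 CpG and 76.0%. Thus in both genes the windows with ACCACA were the ones without H3K4me3 in these cells, and the CpG-dense windows carried it. Over 34961 promoters of the same length, the median was 14.0 CpG and 58.7% G or C. The distal RUNX3 window, without H3K4me3, lay above both medians, so the contrast is weaker there than in RUNX2. Of these promoters, 13.1% held at least 1 ACCACA, 1.31% at least 2 and 0.126% at least 3. At 57.5% of 22131 annotated starts of protein-coding genes, H3K4me3 was present in all 4 libraries. A match is a run of letters and not a measured binding site.

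SOX9 (chr17:72121020-72126416), the cartilage regulator, stood high in the A673 lists and low in the CHLA10 lists. The highest fold was 51.5 and 61.4 in A673, above 79.0% and 88.1% of the peaks in those lists. In CHLA10 it was 5.14 and 4.90, above 19.2% and 17.9%. The peak spanned the lower gene boundary in all 4 libraries and was 3.72 and 3.62 kb long in A673 and 1.57 and 1.77 kb in CHLA10. Both A673 peaks were longer than both CHLA10 peaks, as the median peaks of the A673 lists were. When only the 50% of peaks with the highest −log10 q in each list were kept, SOX9 had H3K4me3 in A673 only, and SP7 no longer had it in all 4 libraries.

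SP7 (chr12:53326575-53344793) had folds of 30.6 and 28.6 in A673, above 58.9% and 59.8% of those lists, and of 13.9 and 9.89 in CHLA10, above 50.9% and 42.4%. These are middling ranks in every library. The peak sat across the upper gene boundary. A second place beyond the lower boundary was found in both A673 libraries only, with folds of 7.70 and 15.1.

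SOX5 (chr12:23529504-24562650) and SOX6 (chr11:15966449-16738477), the long partners of SOX9, had the highest ranks in A673. The top SOX5 peak reached 95.6 and 102 in A673, above 97.4% and 98.8% of those lists, and 31.1 and 29.9 in CHLA10, above 82.9% and 85.1%. It covers the annotated SOX5 start and was 4.62 and 4.33 kb long in A673 and 2.91 and 3.02 kb in CHLA10. The 2 A673 peaks were longer than both CHLA10 peaks, again in the direction of the list medians. Both A673 libraries alone had another H3K4me3 place 419 kb into the gene from the lower boundary, with folds of 15.0 and 12.6, where the table has no annotated start.

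SOX6 had top folds of 83.8 and 77.1 in A673 and 43.1 and 45.4 in CHLA10, above 94.9%, 94.6%, 93.9% and 96.7% of the lists, but at different places. The A673 maximum lay at a place 636 kb from the lower boundary, without an annotated start in the table. The CHLA10 maximum lay at the first annotated start, which faces the neighbouring gene C11orf58, where the A673 folds were 13.4 and 30.0. At the place without an annotated start, CHLA10 had an unbroken peak of 12.2 and 11.7 kb, and A673 had 2 separate peaks in each library, of 5.69 and 3.97 kb in replicate 1 and 6.16 and 3.90 kb in replicate 2. RefSeq lists 5 SOX6 starts, and the mark lay in all 4 libraries over the windows of the first and the fifth, and in none over the other three. A further 3 places within SOX6 had H3K4me3 in both CHLA10 libraries and neither A673 library, with folds between 3.04 and 5.83.

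DLX5 (chr7:97020396-97024831) and DLX6 (chr7:97005553-97011040) lie 9.36 kb apart. The highest DLX5 fold was 52.3 and 49.7 in A673 and 25.1 and 29.6 in CHLA10. For DLX6 it was 43.1 and 43.9 in A673 and 22.5 and 20.9 in CHLA10. All of these lay above at least 68.8% of their lists. The peaks also differed in breadth. The DLX5 peak measured 9.20 and 9.02 kb in A673 and 1.99 and 2.24 kb in CHLA10. The A673 lists also had the longer median peak. The merged H3K4me3 place at DLX5 begins at chr7:97016173, below all of these peaks. A further peak, more than 1 kb from either gene, therefore lies between the genes and is not measured here.

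SHOX2 (chr3:158095905-158106420) is a homeobox gene of the proximal limb. Its highest folds were 39.4 and 59.2 in A673 and 42.0 and 23.1 in CHLA10, above 68.7%, 86.7%, 93.2% and 74.1% of the lists, high within each. The peak at the SHOX2 start was longer in CHLA10, with 3.08 and 2.93 kb, than in A673, with 1.96 and 2.02 kb. A second H3K4me3 place, 1.73 kb into the gene from the lower boundary, was found in both A673 libraries only, with folds of 9.92 and 15.3. No library had H3K27me3, H3K27ac or H3K4me1 over SHOX2 with 1 kb on each side. With 5 kb on each side, both A673 libraries had H3K27me3 there.

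**Figure D2:**
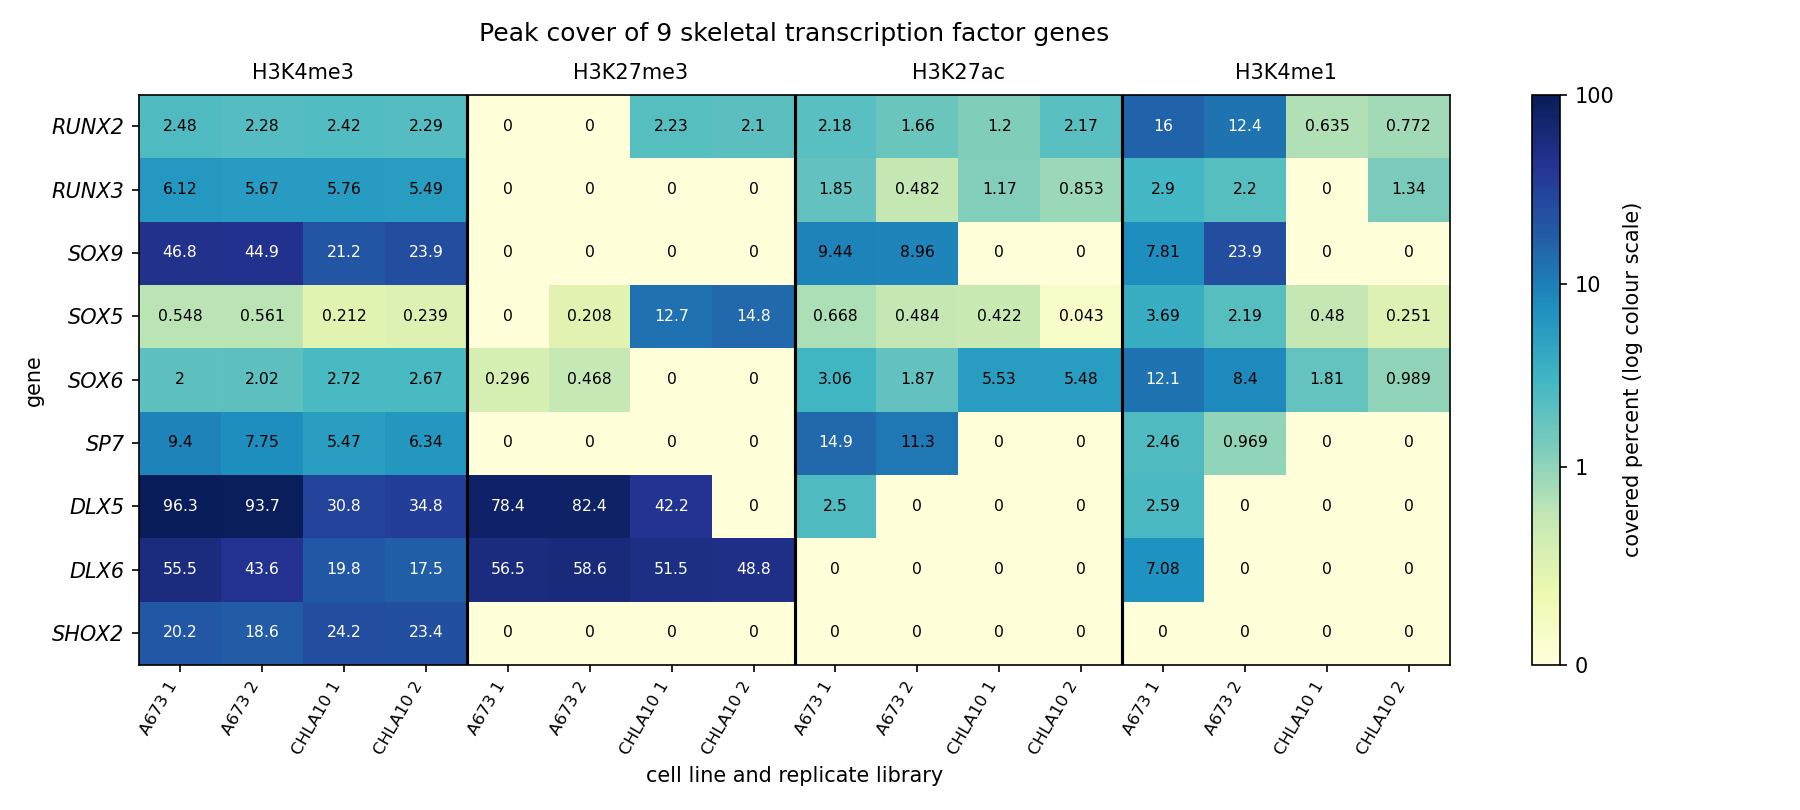
Each cell gives the percent of a gene, with 1 kb on each side, that lies under peaks of a library, for 9 genes (rows) and the 16 histone libraries (columns, by mark, line and replicate), on a log colour scale. DLX5 and DLX6 are heavily covered by both H3K4me3 and H3K27me3 in A673 and less so in CHLA10, where replicate 2 has no H3K27me3 at DLX5. SOX5 carries H3K27me3 almost only in CHLA10, and SOX9 and SP7 have H3K27ac and H3K4me1 in A673 alone.

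H3K27me3 calls differed from member to member. It was found in no library at RUNX3, SOX9, SP7 and SHOX2, that is at 4 of 9 genes, where 72.2% of all protein-coding genes lacked it in every library. DLX6 alone had it in all 4 libraries (1 of 9, against 10.3%), SOX6 alone in A673 only (1 of 9, against 5.10% of all and 11.0% of long genes) and RUNX2 alone in CHLA10 only (1 of 9, against 3.61% and 3.91%). SOX5 and DLX5 had it in 3 of 4 libraries. These calls turn on single libraries. Without A673 replicate 1, SOX5 joins DLX6, and without CHLA10 replicate 2, DLX5 does. Leaving out CHLA10 replicate 1 puts DLX5 beside SOX6, and leaving out A673 replicate 2 puts SOX5 beside RUNX2. With the 50% of peaks of highest −log10 q, with lists of equal length or with windows at the gene boundaries alone, SOX5 took the place of RUNX2 in CHLA10 only.

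At DLX5, H3K27me3 peaks covered 78.4% and 82.4% of the gene with its flanks in A673 and 42.2% and 0% in CHLA10. At DLX6 they covered 56.5% and 58.6% in A673 and 51.5% and 48.8% in CHLA10. In each A673 library a peak of 13.1 and 13.4 kb ran from within DLX6 into DLX5. In CHLA10, peaks of 8.63 and 8.08 kb began within DLX6 and ended before DLX5. Replicate 2 of CHLA10 had no further peak there.

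Overlap of H3K4me3 with H3K27me3 in every pair of libraries of a line was found at DLX5 and DLX6 in A673 (2 of 9, against 5.90% of all genes) and at no member in CHLA10 (0 of 9, against 2.06%). Over DLX5, the shared stretch in A673 was between 4639 and 5068 bp in the 4 pairs of libraries. The CHLA10 overlap was 602 and 644 bp with the H3K27me3 peaks of replicate 1 and 0 bp with those of replicate 2, and without replicate 2 DLX5 counts in CHLA10 too. Over DLX6 the overlap in A673 was between 321 and 1323 bp, and in CHLA10 a gap of 1.83 to 2.03 kb separated the marks. When at least 50% of the shorter peak had to overlap, only DLX5 counted in A673. Peaks from a population of cells do not tell whether both marks sit on the same copy of a gene.

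**Figure D3:**
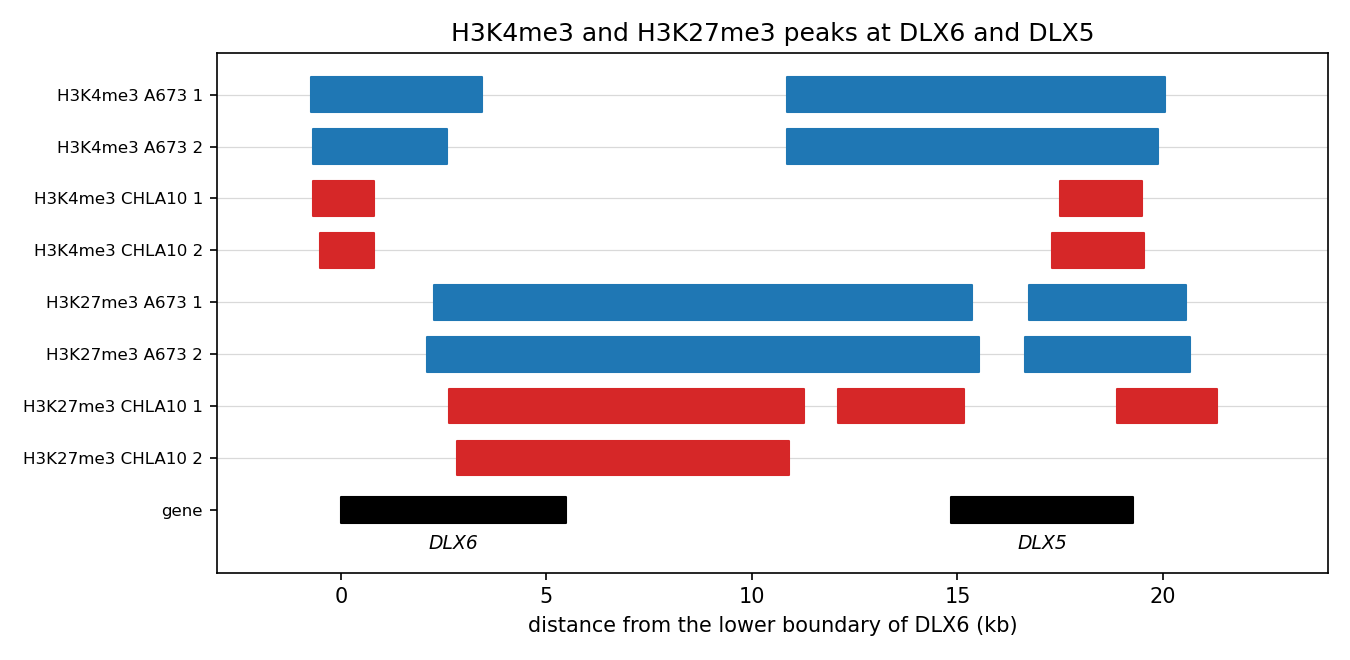
H3K4me3 and H3K27me3 peaks (bars, A673 in blue and CHLA10 in red, with the replicate number) are drawn over DLX6 and DLX5 (black) by distance in kb from the lower boundary of DLX6. Only peaks over a gene or within 1 kb of it are drawn, so H3K4me3 between the genes is not shown in full. The A673 bars of both marks overlap across DLX5 and inside DLX6. The drawn CHLA10 bars of H3K4me3 are short, and those of H3K27me3 in replicate 2 stop before DLX5.

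SOX5 held the most H3K27me3 peaks of any member. The counts were 0 and 1 in A673 and 31 and 29 in CHLA10. They covered 0% and 0.208% of the gene in A673 and 12.7% and 14.8% in CHLA10. Over all genes of 100 kb or more, 4.97% and 6.73% of the windows were covered in A673 and 6.51% and 6.90% in CHLA10. SOX5 was thus below that level in both A673 libraries and above it in both CHLA10 libraries.

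The SOX5 peaks in CHLA10 lay mostly in the part of the gene away from its start. Of the 31 and 29 peaks, 31 and 27 lay in the first 500 kb from the lower boundary. Their folds ran from 3.23 to 4.92 in replicate 1, with a median of 3.80, and from 3.28 to 5.23 in replicate 2, with a median of 4.13. The list medians were 3.88 and 4.01, so these were ordinary peaks of their lists. Merging the 4 libraries gave 40 places, of which 14 (35.0%) were in both CHLA10 libraries and neither A673 library, where 18.3% of all merged H3K27me3 places were. The H3K4me3 place 419 kb into the gene, seen in A673 only, overlapped H3K27me3 peaks of both CHLA10 libraries.

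**Figure D4:**
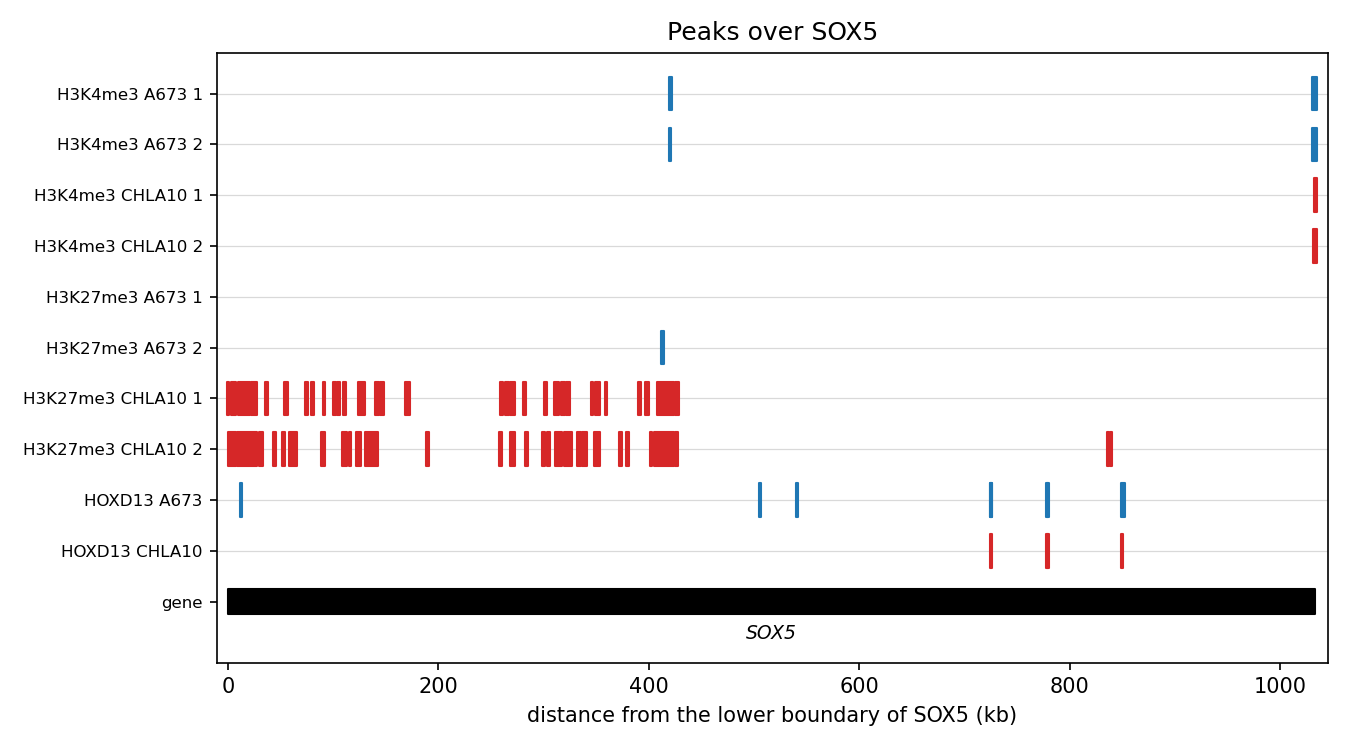
Peaks of H3K4me3, H3K27me3 and HOXD13 (bars, A673 in blue and CHLA10 in red) are drawn over SOX5 by distance in kb from its lower boundary, and short peaks are widened to be visible. The annotated start is at the right. The 31 and 29 H3K27me3 peaks of CHLA10 fill the left part of the gene, and the 4 HOXD13 peaks of CHLA10, all in the right part, each overlap an A673 peak, while 5 of the 9 A673 peaks overlap none of CHLA10.

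RUNX2 had an H3K27me3 peak in each CHLA10 library, of 5.02 and 4.72 kb with folds of 3.77 and 3.73, and none in A673. They covered 2.23% and 2.10% of the gene and lay just downstream of the proximal start, 0.701 to 3.90 kb from the H3K4me3 peaks and overlapping none of them. SOX6 had a peak in each A673 library, covering 0.296% and 0.468% of the gene, but these 2 peaks lay at different places, 735.8 and 37.6 kb from the lower boundary.

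H3K27ac, the mark of active enhancers and starts, was found in all 4 libraries at RUNX2, RUNX3, SOX5 and SOX6, that is at 4 of 9 genes against 22.6% of all genes. The share among genes of 100 kb or more was 58.7%, and 3 of these 4 members are that long. SOX9 and SP7 had it in A673 only (2 of 9, against 8.66%), and no member had it in CHLA10 only (against 4.81%). DLX6 and SHOX2 had none (2 of 9, against 25.2%).

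SP7 had 3 and 2 H3K27ac peaks in A673 and 0 and 0 in CHLA10. The highest folds were 12.2 and 9.71, above 96.7% and 92.7% of the A673 lists, and the peaks covered 14.9% and 11.3% of the gene. These were among the higher peaks of the A673 lists, yet the replicates placed them differently. The 12.2-fold peak lay 2.3 kb into the gene in replicate 1 and the 9.71-fold peak 8.8 kb in replicate 2, and only a place at the upper boundary, with folds of 2.89 and 3.13, was shared.

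SOX9 had 1 H3K27ac peak in each A673 library, with folds of 8.41 and 4.46, and 0 in both CHLA10 libraries. Both lay in the flank beyond the upper boundary, so the call was lost without the flanks. It was also lost when only the 50% of peaks with the highest −log10 q were kept or when lists were cut to equal length, which left SP7 alone. The SP7 call was in turn lost with 5 kb on each side, where SP7 had H3K27ac in all 4 libraries and SOX9 and DLX5 had it in A673 only.

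H3K4me1 gave the same names. SOX9 and SP7 had it in A673 only (2 of 9, against 16.3% of all genes), RUNX2, SOX5 and SOX6 in all 4 libraries (3 of 9, against 15.4%, and 56.6% of genes of 100 kb or more), and SHOX2 in none (1 of 9, against 28.6%). No member had it in CHLA10 only (against 0.411%). Both marks in A673 only were found at 3.27% of all genes. The A673 lists of H3K4me1 cover several times more sequence, as given above, and with lists of equal length neither SOX9 nor SP7 remained. The 2 SP7 peaks lay at different places. Without A673 replicate 2, DLX5 and DLX6 joined them, which gave 4 of 9.

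Cover by H3K4me1 in the long members was higher in A673 than in CHLA10, as it was in the lists. At RUNX2 the gap between the lines was wider than over the long genes together. RUNX2 had 16% and 12.4% of its length covered in A673 and 0.635% and 0.772% in CHLA10. SOX6 had 12.1% and 8.40% in A673 and 1.81% and 0.989% in CHLA10. Genes of 100 kb or more had 3.65% and 2.55% in A673 and 0.432% and 0.509% in CHLA10. Both genes were therefore above the long genes of the same list in all 4 libraries, and SOX5, with 3.69%, 2.19%, 0.480% and 0.251%, was above them in replicate 1 of each line and below in replicate 2.

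SOX6 had the most H3K27ac peaks of the members in every library, though SP7 and SOX9 had a larger covered share in A673. It had 27 and 31 peaks in A673 and 32 and 31 in CHLA10, covering 3.06% and 1.87% of the gene in A673 and 5.53% and 5.48% in CHLA10. The long genes had 1.08% and 0.827% in A673 and 1.2% and 0.977% in CHLA10. SOX6 was above these in every library, and both CHLA10 values exceeded both A673 values. Its highest folds, 17.4, 12.3, 17.0 and 13.4, lay above 99.6%, 98.1%, 99.4% and 97.8% of the lists. The longest CHLA10 peaks, of 6.88 and 7.47 kb, lie within the broad H3K4me3 place without an annotated start.

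Presence over a long gene hides where the peaks were. When the 4 libraries were merged, H3K27ac over the members fell into 146 places, of which 4 were in all 4 libraries (2.74%, against 2.86% of all merged H3K27ac places). Places in both A673 libraries and neither CHLA10 library numbered 11 (7.53%, against 4.43%), and 14 had the reverse pattern (9.59%, against 9.12%). The other 117 were found in some libraries but not in others of the same line, so most H3K27ac places were not shared by replicates. At RUNX2, 18 places included 1 in all 4 libraries, 4 in CHLA10 only and 0 in A673 only. At SOX6, 75 places included 2, 10 and 7. RUNX3, although called in all 4 libraries, had no place shared by both libraries of a line.

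HOXD13 peaks over the genes were found only at the long members. In A673 these were RUNX2, SOX5 and SOX6 (3 of 9, against 12.2% of all genes and 41.2% of genes of 100 kb or more). In CHLA10 they were SOX5 and SOX6 (2 of 9, against 3.81% and 15.7%). Both lines thus had peaks at SOX5 and SOX6 (2 of 9, against 2.37% and 11.3%). None of these peaks lay within 1 kb of a gene boundary.

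SOX6 had 13 HOXD13 peaks in A673 and 4 in CHLA10. This is 1.68 and 0.517 peaks per 100 kb, where genes of 100 kb or more together had 0.317 and 0.0909. As many peaks or more were found at 0.0597% of those long genes in A673 and at 0.567% in CHLA10. SOX6 was therefore among the genes with the most HOXD13 peaks in both lists, and its length adds to that count. SOX5 had 9 and 4 peaks, or 0.869 and 0.386 per 100 kb, with as many at 0.477% and 0.567% of long genes. RUNX2 had 3 and 0, and 9.22% of long genes had at least 3 in A673.

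Some HOXD13 positions were shared by the lines. All 4 CHLA10 peaks in SOX5 overlapped an A673 peak, and 1 of 4 in SOX6 did. The shared SOX5 peak that was highest in CHLA10 had a fold of 23.9 there and 8.88 in A673, 724 kb from the lower boundary, with A673 H3K4me1 in both libraries. In A673 the highest shared SOX5 peak had a fold of 9.49, and 9.85 in CHLA10. The highest SOX6 peak in A673 (chr11:16179788-16180024) had a fold of 20.7 and a −log10 q of 57.6, above 94.6% of the list by fold. It overlapped A673 H3K4me1 in both libraries and H3K27ac in both CHLA10 libraries but in neither A673 library. At RUNX2, the highest peak (chr6:45436871-45437043, fold 18.9) lay 109 kb into the gene on H3K27ac and H3K4me1 of both A673 libraries.

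Most HOXD13 peaks in these genes lay on enhancer marks. Of 25 A673 peaks, 17 overlapped H3K4me1 in at least 1 A673 library, 6 H3K27ac, 1 H3K4me3 and 0 H3K27me3, and 6 had no A673 mark. Over the whole A673 list, 46.9% overlapped H3K4me1, 23.7% H3K27ac, 10.2% H3K4me3 and 4.33% H3K27me3. Of the 8 CHLA10 peaks, 6 overlapped CHLA10 H3K27ac, where 58.4% of the whole list did, and 1 had no CHLA10 mark. Peaks within a gene are not independent, and with these few no difference from the lists is claimed.

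**Figure D5:**
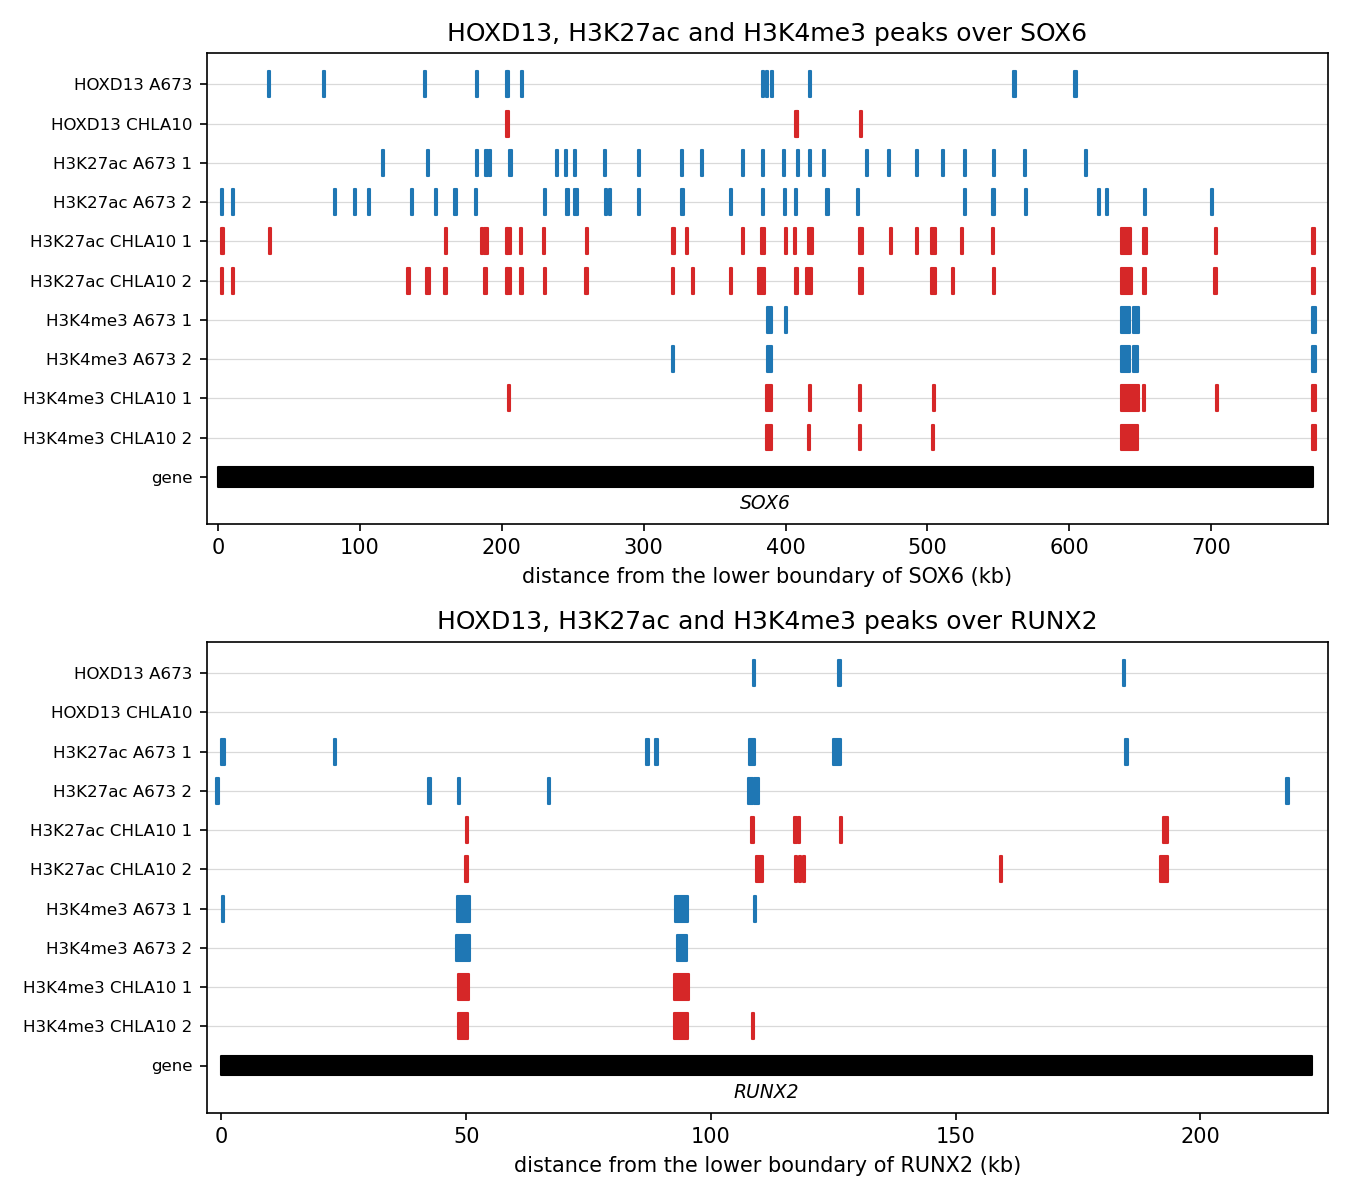
Peaks of HOXD13, H3K27ac and H3K4me3 (bars, A673 in blue and CHLA10 in red) are drawn over SOX6 (upper panel) and RUNX2 (lower panel) by distance in kb from the lower boundary, and short peaks are widened to be visible. SOX6 shows 13 HOXD13 peaks in A673 and 4 in CHLA10 among scattered H3K27ac peaks, and RUNX2 shows 3 and 0, with H3K4me3 at the SUPT3H start and at the proximal RUNX2 start.

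A single HOXD13 peak reached an annotated start of a member. The A673 peak at chr11:16356213-16356539, with a fold of 19.8 and a −log10 q of 37.4, overlapped the window of the fifth SOX6 start (chr11:16356497-16356796, minus strand) by 43 bases. These are in capitals in the RefSeq sequence on GRCh38.p14, written 5′ to 3′ and shown because it is the member start where HOXD13 and H3K4me3 met.
SOX6 start 5: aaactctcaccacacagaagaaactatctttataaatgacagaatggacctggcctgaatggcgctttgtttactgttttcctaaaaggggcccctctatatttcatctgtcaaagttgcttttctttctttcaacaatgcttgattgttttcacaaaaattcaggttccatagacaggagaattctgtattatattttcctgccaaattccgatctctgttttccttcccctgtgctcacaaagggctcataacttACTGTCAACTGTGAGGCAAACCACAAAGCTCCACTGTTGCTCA

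This start is poor in CpG, with 2 CpG and 40.0% G or C, yet it had H3K4me3 in all 4 libraries, with folds of 36.6 and 27.8 in A673 and 18.5 and 18.1 in CHLA10. Searched on both strands, the window holds 2 ACCACA, 1 ACAATG, a core that SOX proteins bind (10.7% of promoters hold at least 1), and 1 GGAAGGAA, a repeat of the ETS core (3.67%). The HOX words TCGTAAA (0.541%) and CAATAAA (4.00%) are not in it. Only 43 bases of the HOXD13 peak of 327 bp lie in this window, and the rest of the peak was not searched. GGAA repeats are the sequence that the EWS::FLI1 fusion of Ewing sarcoma binds, but no library here measured that protein.

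Distal H3K27ac within 100 kb was mostly found in single libraries. The 4 libraries merged into 91 distinct regions around the members, of which 2 were in all 4 libraries, 3 in A673 only, 6 in CHLA10 only and 80 in another combination. A region in all 4 libraries lay near 2 of 9 members, RUNX3 and SP7 (27.3% of all genes), an A673-only region near 3 (39.5%) and a CHLA10-only region near 4 (49.2%). These shares are not above the background. Without A673 replicate 1 or 2 the A673-only regions rose to 34 and 25, and without CHLA10 replicate 2 to 5. Without CHLA10 replicate 2 the CHLA10-only regions numbered 24, and regions in every remaining library numbered 6 without A673 replicate 2 and 4 without CHLA10 replicate 1.

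RUNX3 had 17 such regions. The region in all 4 libraries (chr1:25021351-25023579) lies 56.2 kb beyond the upper boundary, with folds of 4.37 and 4.93 in A673 and 9.03 and 7.68 in CHLA10. Its highest A673 region, with folds of 9.52 and 5.79 and absent from CHLA10, lies 95.2 kb away inside CLIC4. A CHLA10-only region 67.2 kb away, with folds of 4.15 and 2.88, overlapped a CHLA10 HOXD13 peak with a fold of 10.5 and a −log10 q of 60.9.

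SP7 had 28 regions, the most of any member, in a stretch that holds 10 other protein-coding genes. The highest in A673, with folds of 16.9, 14.2, 8.03 and 9.69 in the 4 libraries, lies across the upper boundary of SP1, and the highest in CHLA10, with folds of 10.9 and 3.26, at PRR13. An A673-only region 25.4 kb from SP7, with folds of 11.1 and 13.6, lies outside the other genes. SOX9 had 4 regions, all in A673 libraries, and none was shared by both.

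RUNX2 had 13 distal regions and SOX6 had 14, and none of them was in all 4 libraries or in both libraries of 1 line alone. The highest RUNX2 region in CHLA10, with folds of 11.2 and 5.32, lies 39.0 kb beyond the upper boundary and was also in A673 replicate 1, at 4.76. Near SOX6, the highest A673 region, at 11.6 in replicate 1, lies in PLEKHA7, and the highest CHLA10 region, at 10.1 and 5.92, lies 54.4 kb below the gene. SOX5 had 6 regions, of which 1, with folds of 6.58 and 6.88, was CHLA10-only. DLX6 had 1 A673-only region, with folds of 3.17 and 6.21, and it lies between the genes, within 1 kb of DLX5. For DLX5 the 4 regions were each in 1 library, with maxima of 5.83 in A673 and 6.72 in CHLA10.

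Distal HOXD13 peaks lay near RUNX2, SOX5 and SP7 in A673 (3 of 9, against 31.8% of all genes) and near RUNX3 and SHOX2 in CHLA10 (2 of 9, against 8.48%). The 2 peaks at SHOX2 lie inside the neighbouring gene RSRC1, 61.7 and 79.3 kb from SHOX2. Their folds were 27.5 and 13.1, above 92.7% and 69.6% of the CHLA10 list, and both overlapped CHLA10 H3K27ac. The second met the only CHLA10-only H3K27ac region near SHOX2, with folds of 4.16 and 6.53. None of the 7 distal HOXD13 peaks overlapped a peak of the other line. With distal peaks limited to 50 kb, none remained in CHLA10, and with HOXD13 lists of equal length none remained in A673.

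Other genes of the skeleton, in lists of 18 each, are given for comparison. Among skeletal regulators, H3K4me3 was in all 4 libraries at 16 of 18 (66.7% of all genes) and in A673 only at BARX1 (1.68%). H3K27me3 was in all 4 libraries at 3 (10.3%), in A673 only at PRRX1, MEF2C and MSX2 (5.10%), and in none at 7 (72.2%). H3K27ac was in CHLA10 only at HAND2 and TWIST1 (4.81%), and in A673 only at regulators that include CBFB (8.66%). HOXD13 peaks were in both lines at GLI3 and TRPS1 (2.37%), in A673 only at 4 (9.85%) and in CHLA10 only at PRRX1 (1.43%). Among the members, RUNX2 was the only gene with HOXD13 in A673 only, and 0 of 9 had it in CHLA10 only.

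Of 18 chondrocyte matrix and signalling genes, targets of SOX9 among them, 9 had H3K4me3 in all 4 libraries (66.7% of all genes). H3K27ac was in A673 only at 5, namely COL2A1, ACAN, MATN3, SNORC and COL11A2 (8.66%), in all 4 libraries at 1 (22.6%) and in CHLA10 only at 0 (4.81%). The covered share was small, such as 1.23% and 5.00% of COL2A1, the collagen of cartilage, and 0.736% and 1.32% of ACAN, its aggrecan. Other marks went both ways. H3K4me1 was in A673 only at 5 (16.3%) and in CHLA10 only at 1, ACAN (0.411%). H3K4me3 was in CHLA10 only at 1, CHAD (2.40%). H3K27me3 was in A673 only at 2, COL11A1 and HAPLN1 (5.10%). Of 18 osteoblast genes, 6 had H3K4me3 in all 4 libraries (66.7%) and 8 in none (24.3%), and H3K27ac was in A673 only at 1, ANKH (8.66%). HOXD13 lay over 1 chondrocyte gene, COL9A1 in A673 only (9.85%), and over no osteoblast gene.

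Genes with the same presence and absence in all 18 lists were counted for each member. SHOX2 shared its pattern of H3K4me3 alone with 559 genes. SOX9 and SP7 have identical patterns, which 252 genes share with each of them. RUNX3 had 236 such genes, SOX6 48, DLX6 36 and RUNX2 15. SOX5 and DLX5 had 1 each, CNTN4 and TMEM86A.

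By covered percent over the 16 histone lists, the nearest gene with the DLX6 pattern was FST, at a mean absolute difference of 8.51 percentage points, followed by SHH at 9.22 and CITED1 at 9.29. For SOX9 it was DDIT3, at 2.69, and for SP7 it was APBB1, at 0.823. The nearest to RUNX2 was TSPAN18, at 1.28, to RUNX3 PRPSAP1, at 0.320, to SOX6 DCAF5, at 0.869, and to SHOX2 NICOL1, at 0.324. For long genes and for SHOX2 these differences are small because most of the window is uncovered in every list.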

How the data were processed

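The authors deposited 1 peak list per CUT&RUN library, 18 in all, called per sample. Per the submitters' processing notes, Bowtie2, MACS2, SEACR 1.2, bedtools and hg38 were used, with no roles given. The deposited lists have no header, and columns were read by position: the authors' score, the authors' fold enrichment (a ratio) and the deposited −log10 p and −log10 q values of each peak. Peak names in the deposited lists place HOXD13, H3K27ac, H3K4me1 and H3K4me3 against IgG as narrow peaks and H3K27me3 as broad peaks of at least 2000 bp without a control. Peak numbers have gaps, so the authors kept part of their calls, by a rule not given in the sources used here. No read counts were used, so the depth behind a peak is unknown and no interval is given.

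Gene boundaries and starts came from RefSeq tables on GRCh38.p14, the build family of hg38. The boundary table has no exons, so exons and introns were not told apart. RefSeq promoter sequences matched 6 of 9 members with 12 starts; SOX9, SP7 and DLX5 are named only. Presence at a gene required a peak over it, or over 1 kb on either side, with at least 1 bp of overlap. "A673 only" means both A673 libraries and neither CHLA10 library, and the reverse for "CHLA10 only". Places are overlapping peaks of the 4 libraries of a mark, merged. Distal peaks lie beyond 1 kb and within 100 kb. Scripts ran in Python 3.11.15 with pandas 2.3.3, numpy 2.4.6 and matplotlib 3.10.9, and the overlap code was tested on simulated data.

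All 9 members are named. Other genes are named where marked in 1 line only, where HOXD13 lay over them, or as the 3 nearest in pattern at most; a result on a listed skeletal regulator is not reported here. For distal H3K27ac the highest region per line was named; regions of 1 line or of all libraries and the single SHOX2 and SOX6 positions were singled out after their values were seen. The members, gene lists and alternatives were chosen with earlier results of these data known. The alternatives changed the q threshold, list lengths, flanks, overlap, distal distance and neighbours of other genes, and left out each histone library in turn.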

Additional observations from a re-analysis of the deposited data

How the results depend on the processing

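Over 21 results, 190 alternatives were run, of which 144 stayed within 1.5 times the main count, 46 moved and 0 reversed. A count has no sign to reverse, so that 0 carries no information. The labels compare counts and not members. With the 50% of peaks of highest −log10 q, H3K27me3 in CHLA10 only stayed at 1, with SOX5 in place of RUNX2. With 5 kb flanks, H3K27ac in A673 only stayed at 2, with DLX5 in place of SP7. Keeping the 50% of peaks with the highest −log10 q put 1 member in H3K4me3 A673 only, 0 in H3K27me3 A673 only, 2 in H3K27ac in all libraries, 1 in H3K27ac A673 only, 0 in H3K4me1 A673 only and 1 in distal HOXD13 in A673, and left 1 distal H3K27ac region in all libraries. Lists of equal length gave 1 for H3K27ac A673 only, 0 for H3K4me1 A673 only, 0 for distal HOXD13 in A673 and 1 region in all libraries. Genes without flanks gave 1 for H3K27ac A673 only and 1 for H3K4me1 A673 only. With 5 kb flanks, H3K27me3 counts were 2 in all libraries and 2 in A673 only (SOX6 and SHOX2), and H3K4me1 A673 only was 4. Windows at the gene boundaries alone gave 0 for H3K27me3 A673 only, 0 for H3K27ac and 0 for H3K4me1 in all libraries, 1 for H3K27ac CHLA10 only (SOX6), 1 for overlapping marks in A673 and 0 for HOXD13 in each line. With at least 50% overlap, H3K27me3 in all libraries was 0, H3K4me1 A673 only 1 and overlapping marks in A673 1.

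At 50 kb, distal HOXD13 in CHLA10 was 0, CHLA10-only H3K27ac regions 2 and regions in all libraries 0. At 250 kb, distal HOXD13 in A673 was 8, and the regions were 8 in A673 only, 17 in CHLA10 only and 8 in all libraries. Leaving out peaks within 1 kb of another gene left 1 region in all libraries. Leaving out 1 library at a time gave 1 to 2 members for each of H3K27me3 in all libraries, in A673 only and in CHLA10 only, 2 to 4 for H3K4me1 A673 only and 0 to 1 for overlapping marks in CHLA10. It gave 3 to 34 regions in A673 only, 7 to 24 in CHLA10 only and 2 to 6 in all libraries; fewer libraries then have to meet the rule. The cause of the other moves was not tested. No paired analysis was possible because the results are counts of peaks with no test, although replicate numbers recur across groups. Each line is 1 cell line, so line, culture medium and the selection behind each list cannot be told apart. HOXD13 has no replicate. The lists hold no read counts, so an absent peak may be a signal under the caller's threshold.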
